A study of Mus musculus with 6 samples.

Results

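The Hox genes of the mouse were examined in open-chromatin profiles of T follicular helper (Tfh) cells, the CD4 T cells that help B cells in germinal centres. Members were all listed peaks whose gene symbol is Hoxa, Hoxb, Hoxc or Hoxd followed by a number. This gave 94 of 282898 peaks and 36 of the 39 Hox genes in the RefSeq gene table, while 19109 genes in all had a peak. Hoxa gave 25 peaks in 10 genes on chromosome 6, Hoxb 26 peaks in 9 genes on chromosome 11, Hoxc 15 peaks in 8 genes on chromosome 15 and Hoxd 28 peaks in 9 genes on chromosome 2. Hoxa2, Hoxb3 and Hoxc6 had no listed peak.

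The profiles came from ATAC-seq, which marks open DNA by where a transposase can insert adaptors. There were 3 libraries from Stat6 knockout (KO) mice and 3 from Stat6 wild-type (WT) mice, all of strain C57BL/6 and untreated. Each genotype gave 1 library of each sorted population, named Tfh21, Tfh214 and Tfh4 in the labels, which do not define these names. Cells were sorted from a pool of 10 mice per genotype, so no library has a replicate and differences of genotype, mouse pool and library preparation cannot be told apart. The age of the mice, the tissue and the kind of Stat6 allele were not given in the sources used here.

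Hox genes encode homeodomain transcription factors that give cells along the body axis their regional identity. They stand in 4 clusters, and the order of the genes in a cluster follows the order of their domains along the axis. In tissues that do not use them, Polycomb complexes keep the clusters repressed, and trithorax complexes keep them active where they are used. In blood, Hoxa and Hoxb genes such as Hoxa9 and Hoxb4 are known from stem and progenitor cells. Many Hox promoters lie in CpG-rich DNA, which is unmethylated at most vertebrate promoters.

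Promoter sequence was taken from RefSeq (build GRCm38.p6) for 22 of the 39 Hox genes, in windows of 250 bases before to 50 bases after the start. The 24 windows of these genes held a median of 14.5 CpG (range 4 to 45), against 7 in 32851 windows of all genes. Their median GC content was 57.7%, against 52.7% in all windows, and the median ratio of observed to expected CpG was 0.626, against 0.384. By the usual cut-offs of over 50% GC and a ratio over 0.6, 11 Hox windows (45.8%) were CpG island-like, against 33.3% of all. The name CpG-rich thus held for some of these Hox promoters and not for others. Hoxb was covered by Hoxb1, Hoxb4 and Hoxb8 alone and Hoxc by Hoxc4 alone. The 250 bases before 4 starts are shown, with each CG in capitals. Hoxd9, a posterior trunk and limb gene, had the start-site peak with most reads among Hox genes with a sequence. Hoxb4, a regulator of blood stem cells, had the start-site peak with most reads among Hoxb genes with a sequence. Hoxa13, a digit and genital gene, had the most CpG. Hoxa2, a gene of the hindbrain and branchial arches, had no listed peak. The stretches lie at chr2:74697513-74697762 on the + strand for Hoxd9, chr11:96318017-96318266 on the + strand for Hoxb4, chr6:52260881-52261130 on the - strand for Hoxa13 and chr6:52164832-52165081 on the - strand for Hoxa2.
Hoxd9: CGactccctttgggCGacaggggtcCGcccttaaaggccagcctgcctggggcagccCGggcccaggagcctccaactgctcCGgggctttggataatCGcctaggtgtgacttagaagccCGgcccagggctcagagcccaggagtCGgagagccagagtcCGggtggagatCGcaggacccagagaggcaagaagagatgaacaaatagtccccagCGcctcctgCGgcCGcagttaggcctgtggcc
Hoxb4: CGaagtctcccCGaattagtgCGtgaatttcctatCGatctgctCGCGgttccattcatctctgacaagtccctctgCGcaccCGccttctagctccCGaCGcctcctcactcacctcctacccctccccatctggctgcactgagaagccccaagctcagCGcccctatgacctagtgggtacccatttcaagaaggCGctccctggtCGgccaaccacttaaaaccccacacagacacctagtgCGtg
Hoxa13: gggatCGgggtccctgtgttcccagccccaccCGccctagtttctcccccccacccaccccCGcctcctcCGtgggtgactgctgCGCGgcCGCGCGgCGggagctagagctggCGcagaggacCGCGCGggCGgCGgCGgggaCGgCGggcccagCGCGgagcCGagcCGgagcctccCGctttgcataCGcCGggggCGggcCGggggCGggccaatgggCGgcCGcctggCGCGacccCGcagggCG
Hoxa2: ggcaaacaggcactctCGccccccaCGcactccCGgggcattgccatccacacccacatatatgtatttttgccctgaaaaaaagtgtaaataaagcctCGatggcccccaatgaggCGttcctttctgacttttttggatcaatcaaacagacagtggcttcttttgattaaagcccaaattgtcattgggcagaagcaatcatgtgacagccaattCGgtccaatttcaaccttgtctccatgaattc
The stretches held 13 CpG for Hoxd9, 14 for Hoxb4, 35 for Hoxa13 and 6 for Hoxa2. GC content was 65.2%, 58.0%, 80.0% and 46.4% in that order of genes.

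In the same 300-base windows, searched on both strands, the homeodomain core TAAT was found in 19 of 24 Hox windows (79.2%), against 58.0% of all windows. The STAT motif in which TTC and GAA stand 4 bases apart, the spacing preferred by Stat6, was found in 1 Hox window, that of Hoxc4 (4.17%), against 6.95% of all. TTCNNNGAA, the shorter spacing preferred by other STAT factors, was found in 1 Hox window, that of Hoxd4 (4.17%), against 8.30% of all. The TATA motif TATAAA was found in 4 Hox windows (16.7%), against 13.6% of all. A match gives the letters only and no binding.

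The libraries held 1051120, 798555 and 1238585 reads in listed peaks for KO Tfh21, KO Tfh214 and KO Tfh4, against 1122701, 1271755 and 1373218 for WT Tfh21, WT Tfh214 and WT Tfh4. Values were deposited as CPM, which scales the reads in listed peaks to the same total in each library, and 1 read was worth 0.728 to 1.25 CPM. Peaks at a transcription start site (TSS) took 36.4%, 34.9% and 29.7% of reads in the KO libraries, against 31.5%, 31.0% and 27.6% in the WT libraries. Peaks with under 30 reads over the 6 libraries took 46.0%, 49.4% and 55.1% in KO, against 53.6%, 53.4% and 59.8% in WT. Stat6 had 6 listed peaks with 57, 51 and 68 reads in KO libraries, against 51, 69 and 58 in WT libraries, and accessibility does not show whether the gene is deleted. The cells had start-site peaks at all 12 T cell genes and all 8 Tfh genes of the marker lists. None of the 7 B cell markers used had one, and Cd79a and Ms4a1 had no listed peak. Over all genes with a peak, 72.2% had a start-site peak. Of the markers with a peak, 5 of 6 myeloid and 2 of 5 progenitor genes had one, so its presence alone does not name the cell type. The median was 33.4 reads per kb for the myeloid and 30.7 for the progenitor genes, against 157 for the T cell genes, with 234 at the myeloid gene Cebpa.

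Hox peaks were weak in these cells, as most listed peaks were. They held 10 to 58 reads over the 6 libraries with a median of 13.5, close to the median of 14 over all peaks, and every listed peak of the series held at least 10. Of the 94 Hox peaks, 86 (91.5%) held under 30 reads, against 90% of all peaks, and 13 held exactly 10. Per length, Hox peaks held a median of 39.3 reads per kb, against 32.8 over all peaks. No Hox peak reached 60 reads, a level that 4.98% of all peaks reached. By gene, 48.4% of all genes reached it in at least 1 peak. The 94 peaks held 1601 reads, of which 444 were in Hoxa, 480 in Hoxb, 201 in Hoxc and 476 in Hoxd. These values are accessibility in bulk samples, where a site open in a few cells and a site weakly open in all cells cannot be told apart, and transcription was not measured.

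The low level stood out at start sites. Of the 36 genes with a peak, 29 had one at the TSS, in 41 peaks. Hoxa7, Hoxb1, Hoxb2, Hoxb6, Hoxb13, Hoxc8 and Hoxd3 had listed peaks elsewhere only. The Hox TSS peaks held a median of 42.6 reads per kb (quartiles 31.3 and 50), against 112 in 20036 TSS peaks of all genes (quartiles 50 and 255). The Hox median was 0.381 of the median of all. Only 1 of the 41 lay above the median of all start sites, the Hoxa4 peak at chr6:52141906-52142296 (mm9 as deposited) with 133 reads per kb. Of the Hox TSS peaks, 37 (90.2%) held under 30 reads, against 48.5% of all TSS peaks. At the same time the TSS was the most frequent place of a Hox peak, with 43.6% of Hox peaks, against 13.5% of all peaks with a gene. Introns held 6.38% of Hox peaks, against 53.9% of all, and coding exons 23.4%, against 11.2%.

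Other gene lists put this level in context. Of 50 homeobox and developmental genes outside the clusters, 29 had a TSS peak, with a median of 39.0 reads per kb per gene, against 42.0 for the 29 Hox genes and 176 over all genes. Genes whose products write or read the Polycomb mark had open start sites themselves. The 11 genes of Polycomb repressive complex 2 (PRC2) had a median of 275 reads per kb, with 379 at Eed and 300 at its catalytic subunit Ezh2. The median was 226 for 17 genes of PRC1 with a TSS peak and 215 for 11 trithorax genes, among them Kmt2a, the methyltransferase that maintains Hox transcription, with 155. The TALE cofactors, homeodomain proteins that bind DNA together with Hox proteins, had a median of 103 over 11 genes. Within this list Pknox1 had 268, Pbx3 215 and Tgif1 173, while Meis1 had 27.8. The 10 genes in or beside the clusters with a TSS peak had a median of 59.7 reads per kb (range 17.3 to 322). Among those with most reads, Lnpk had 322, Hibadh 303, Skap1 80.6 and Snx10 64.4. No tested gene of these lists was called by limma in any of the 4 contrasts of genotype or population. Over all genes tested it called 0.0444% between genotypes and 0% in each contrast of populations, so a list with no call is the usual case. Of the 50 developmental genes, 16 held enough reads to be tested.

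**Figure D1:**
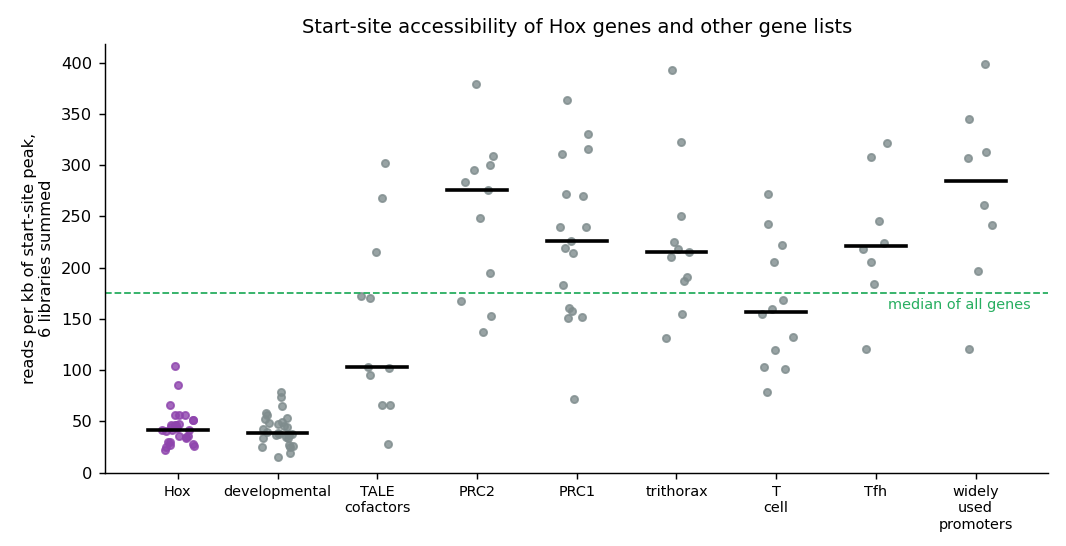
Reads per kb of start-site peak, summed over the 6 libraries, for genes with a TSS peak in Hox genes and 8 other lists (1 point per gene, bar at the list's median, dashed line at the median of all genes). Hox genes (median 42.0) and other developmental genes (39.0) lie low, and the lists of PRC2 (275), PRC1 (226), trithorax (215), T cell (157), Tfh (221) and widely used promoters (284) lie higher.

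Hox genes with many CpG had low start-site levels. Among 6803 protein-coding genes with at least 20 CpG in their window, 80.5% had a TSS peak, with a median of 194 reads and 227 reads per kb. Of the 11 Hox genes with at least 20 CpG, 10 had a TSS peak, with a median of 21 reads (range 11 to 84) and 46.3 reads per kb. Hoxa13, with 45 CpG, had 22 reads at its start site, or 46.4 per kb. Hoxd13, a digit gene with 37 CpG, had 11 reads, or 43.5 per kb. Hoxd9, with 20 CpG, had 84 reads, or 51.3 per kb. Hoxd4, with 4 CpG, had 12 reads, or 21.7 per kb. The 2 Hox genes with under 5 CpG had a median of 28.6 reads per kb, near the 36.0 of all genes with as few CpG and a TSS peak. Hox start sites were thus low with few and with many CpG. With at least 20 CpG they lay far below other genes of that class, and with under 5 they did not. The gene names in this comparison were chosen after their values were seen, apart from Hoxd9.

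**Figure D2:**
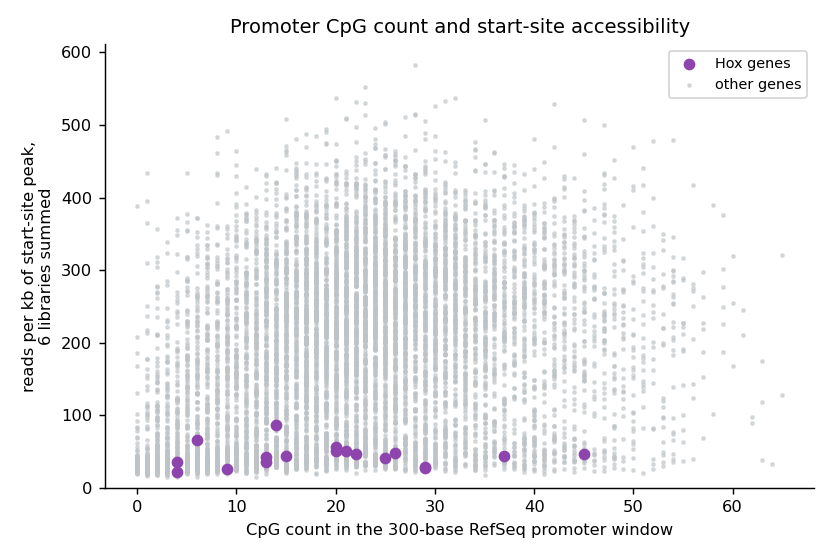
CpG count in the RefSeq promoter window (x axis) against reads per kb of start-site peak summed over the 6 libraries (y axis), 1 point per protein-coding gene with a TSS peak, Hox genes in colour. Hox genes with at least 20 CpG lie near 46.3 reads per kb, where all genes with as many CpG have a median of 227.

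The clusters were dense in weak peaks. From the first to the last transcript end, Hoxa covered chr6:52105366-52210875, Hoxb chr11:96055675-96229568, Hoxc chr15:102751562-102867284 and Hoxd chr2:74506367-74603200 (mm9). Listed peaks stood at 35.1 per 100 kb in Hoxa, 28.2 in Hoxb, 27.7 in Hoxc and 37.2 in Hoxd, whatever their symbol. The median 100-kb window of the genome held 9, and 94.7% to 99.0% of 26429 windows held fewer than the clusters. These windows run to the last listed peak of each chromosome and include windows with no listed peak. Such density mostly goes with a strong peak: among 1411 windows as dense as Hoxc or denser, the strongest peak had a median of 219 reads. The strongest peak in the 4 spans had 61 reads, and in 107 of those windows (7.58%) the strongest peak was no higher. Of the 154 peaks in the spans, 61 carried no Hox symbol, so sums by symbol miss part of each cluster. Among Hox peaks, 15 (16%) shared an edge with the next listed peak, against 8.33% of all peaks, so a longer open stretch can stand as several peaks.

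**Figure D3:**
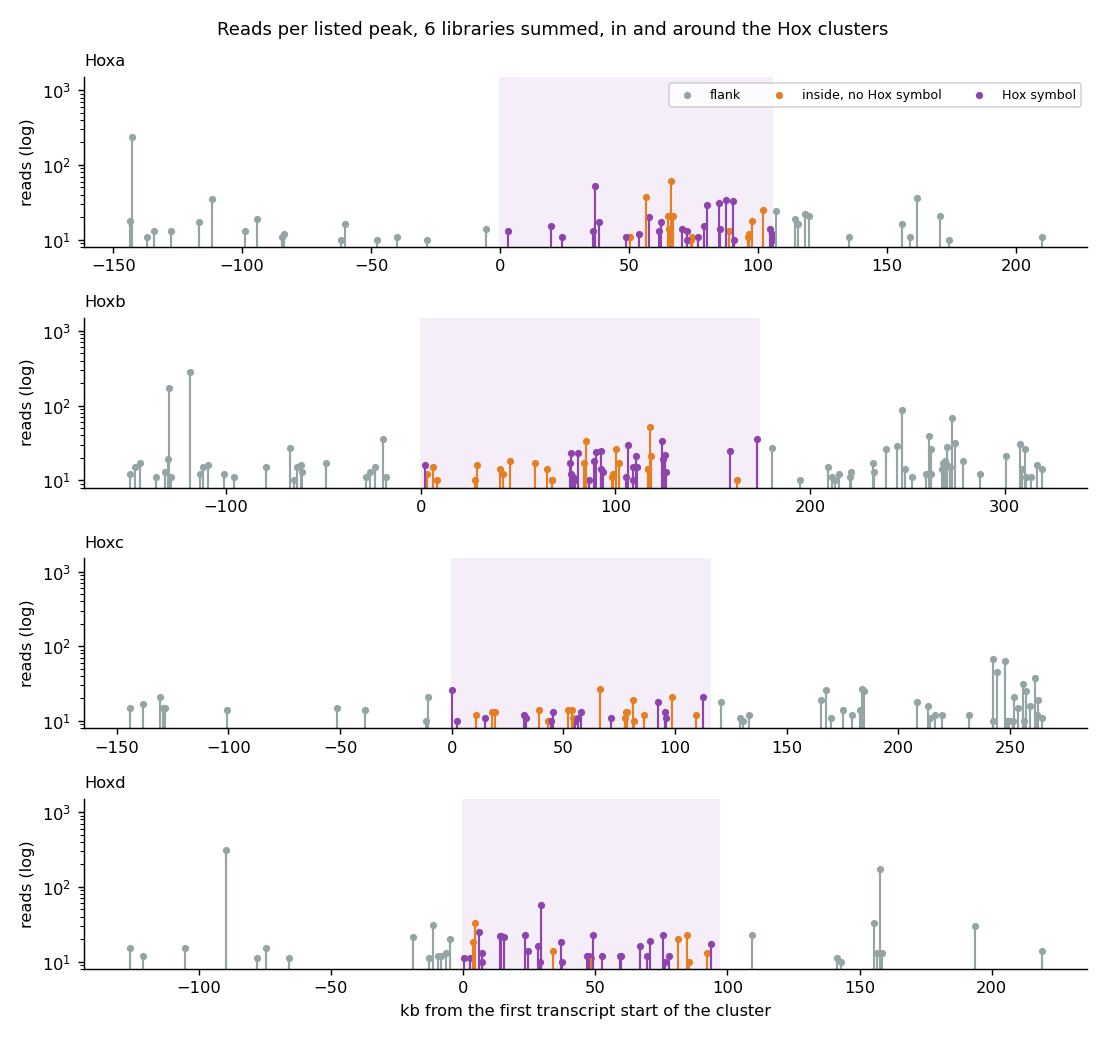
Reads per listed peak, summed over the 6 libraries (log axis), by distance in kb from the lowest transcript coordinate of each cluster, with 150 kb on both sides and the cluster shaded. No peak in a shaded span exceeds 61 reads, while the flanks of Hoxa, Hoxb and Hoxd hold a few peaks above 100 and those of Hoxc none.

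The share of reads in Hox peaks lay between 0.0210% and 0.0256% in every library. Hox peaks took 0.0210%, 0.0244% and 0.0212% of the reads of KO Tfh21, KO Tfh214 and KO Tfh4, against 0.0256%, 0.0230% and 0.0250% for WT Tfh21, WT Tfh214 and WT Tfh4. Hoxa summed to 64.1 ± 2.20 CPM in KO libraries and 65.4 ± 6.69 CPM in WT libraries (SD over the 3 populations). Hoxb summed to 67.1 ± 9.31 CPM in KO and 74.0 ± 14.4 CPM in WT. Hoxc, the cluster with the fewest reads, summed to 26.4 ± 7.97 CPM in KO and 32.5 ± 3.46 CPM in WT. Hoxd summed to 64.4 ± 5.02 CPM in KO and 73.3 ± 9.80 CPM in WT. In each cluster the ranges of the 3 KO and the 3 WT libraries overlapped.

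**Figure D4:**
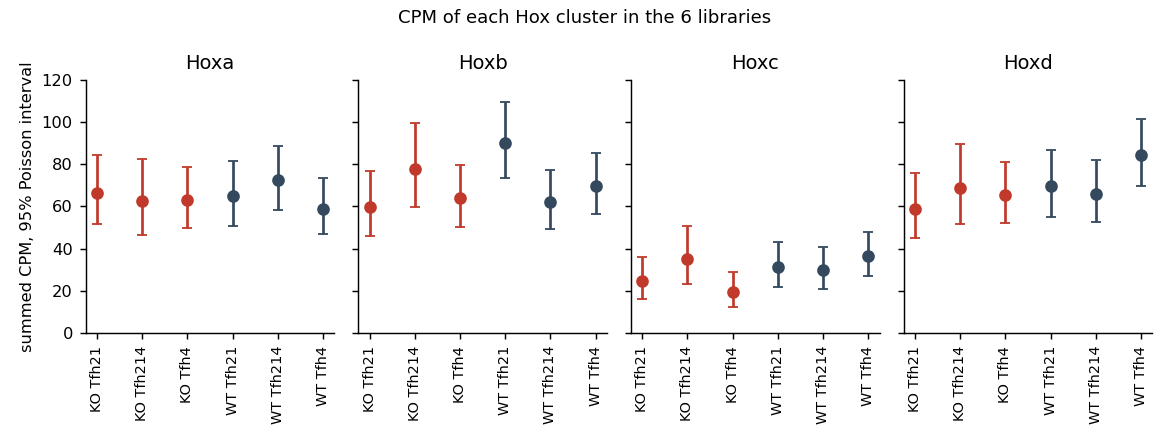
Summed CPM of each Hox cluster in the 3 KO and the 3 WT libraries, with 95% Poisson intervals of counting error. KO means of 64.1, 67.1, 26.4 and 64.4 CPM for Hoxa to Hoxd stand beside WT means of 65.4, 74.0, 32.5 and 73.3 CPM, with overlapping ranges.

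Pooled over the populations, the 36 genes held 678 reads in KO and 923 in WT, a ratio of CPM of 0.896 (95% exact binomial interval 0.810 to 0.991, counting error only). All peaks of the series with under 30 reads had a ratio of 0.905, and the share of reads in such peaks moved with genotype as given above, and the Hox interval holds that value. The B cell markers, 5 of 7 with a listed peak and none at a start site, summed to 108, 121 and 125 CPM in KO Tfh21, KO Tfh214 and KO Tfh4, against 113, 167 and 162 CPM in WT Tfh21, WT Tfh214 and WT Tfh4, lower in KO in each population. Within this B cell list in Tfh4, Pax5 held 66 reads in KO and 127 in WT, and Blnk 29 and 39. Cd22 held 3 and 5, Cd79b 6 and 6, and Ebf1 51 and 45. The progenitor markers, 5 of 6 with a peak, summed to 109.4, 81.4 and 145 CPM in KO, against 109.6, 118 and 154 CPM in WT. They were thus about equal in Tfh21 and lower in KO in Tfh214 and Tfh4. In Tfh4 Mecom held 38 reads in KO and 89 in WT. The other progenitor markers did not share this drop in Tfh4, with 58 and 53 at Flt3, 40 and 42 at Kit, 22 and 18 at Cd34, and 21 and 10 at Meis1. In Tfh214, where the KO library held fewer reads in all, each of the 5 was lower in KO in CPM. Mecom held 23 reads in KO and 54 in WT there, and Kit 13 and 32. Each of the 5 B cell markers with a peak was also lower in KO in CPM in Tfh214, with 59 and 128 reads at Pax5. The myeloid markers, 6 of 7 with a peak, summed to 97.7 to 108 CPM in KO, against 95.4 to 119 in WT. Their part in the Hox ratio was not tested. The ratio was 0.982 (0.810 to 1.19) for Hoxa, 0.902 (0.749 to 1.08) for Hoxb, 0.774 (0.575 to 1.04) for Hoxc and 0.869 (0.720 to 1.05) for Hoxd. By population, all Hox peaks had a ratio of 0.822 (0.687 to 0.984) in Tfh21, 1.06 (0.880 to 1.27) in Tfh214 and 0.847 (0.718 to 0.998) in Tfh4. The direction thus differed between populations with CPM as deposited, while median-of-ratios scaling, which evens out strong peaks, gave 0.698, 0.946 and 0.754, all below 1. A two-sided exact sign-flip test over the 3 populations gave p = 1 for Hoxa, 0.75 for Hoxb and 0.5 for Hoxc, Hoxd and all Hox, with 0.25 the smallest p it can give. The values furthest from 1 were 0.532 (0.313 to 0.882) for Hoxc in Tfh4 and 0.666 (0.478 to 0.922) for Hoxb in Tfh21. Both were chosen after the 12 values were seen. By position along the cluster, the ratio was 0.907 for paralog groups 1 to 4, 0.907 for groups 5 to 8 and 0.884 for groups 9 to 13.

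At start sites alone, KO was lower in all 3 populations. Hox TSS peaks held 104, 76 and 118 reads in KO Tfh21, KO Tfh214 and KO Tfh4, against 138, 144 and 161 in WT Tfh21, WT Tfh214 and WT Tfh4. The ratio of CPM was 0.821 (0.706 to 0.953) pooled, with 0.805 in Tfh21, 0.841 in Tfh214 and 0.813 in Tfh4. Over all TSS peaks the ratio was 1.11, and over TSS peaks with under 30 reads it was 0.953, with 0.998, 1.03 and 0.857 by population. As a share of all start-site reads, Hox took 0.0272%, 0.0272% and 0.0321% in KO libraries, against 0.0390%, 0.0365% and 0.0424% in WT libraries, so the genotypes did not overlap. With start-site peaks limited to 200 bases from the start they did overlap, with 0.0245% in KO Tfh4 and 0.0233% in WT Tfh214. Within each population KO was still lower there, with 0.0212% against 0.0282% in Tfh21, 0.0174% against 0.0233% in Tfh214 and 0.0245% against 0.0333% in Tfh4. The mean log2 ratio of the shares over all TSS peaks was -0.45 ± 0.06 (SD over 3 populations), with an exact sign-flip p of 0.25 and an exact permutation p of 0.1 for 3 against 3 libraries, each the smallest the design can give. As a share of reads in TSS peaks with under 30 reads, Hox peaks of that class took 0.342%, 0.355% and 0.352% in KO, against 0.431%, 0.421% and 0.328% in WT, and there the genotypes overlapped. TSS peaks with under 30 reads took 6.11%, 6.16% and 7.11% of start-site reads in KO, against 7.07%, 6.74% and 8.90% in WT, and their part in the Hox difference was not tested.

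By gene, 20 of the 29 Hox genes with a TSS peak had a start-site ratio below 1 and 9 above, where 32.2% of all genes with a TSS peak lay below 1. The interval lay wholly below 1 for 1 of the 29, Hoxb4, where this held for 1.15% of all genes. The Hoxb4 start-site peak at chr11:96179562-96179958 held 3, 1 and 4 reads in KO libraries, against 14, 3 and 9 in WT libraries, a ratio of 0.375 (0.147 to 0.854). KO libraries held fewer reads than the WT library of the same population in each case, on counts of 1 to 14. Leaving out 1 Hox gene at a time moved the pooled start-site ratio between 0.793 and 0.848.

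**Figure D5:**
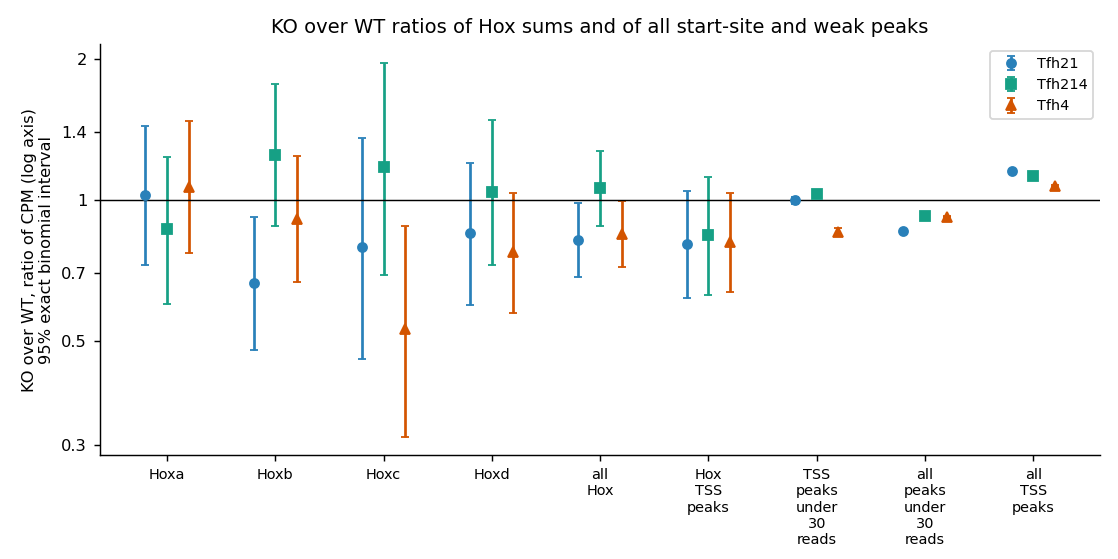
KO over WT ratios of CPM (log axis) in Tfh21, Tfh214 and Tfh4, with 95% exact binomial intervals of counting error, for the Hox clusters, all Hox peaks, Hox TSS peaks and 3 sets over all genes. All Hox peaks (0.822, 1.06 and 0.847) straddle 1, Hox TSS peaks (0.805, 0.841 and 0.813) lie below it, and all TSS peaks (1.11 pooled) lie above it.

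Single genes were described by reads summed over their peaks. Hoxd3, a gene of the axial skeleton, had the most reads, with 21, 12 and 34 in KO Tfh21, KO Tfh214 and KO Tfh4, against 15, 25 and 32 in WT Tfh21, WT Tfh214 and WT Tfh4. Its 9 peaks included none at the TSS. Hoxb4 had 12, 15 and 13 reads in KO libraries, against 26, 13 and 22 in WT libraries. Hoxb9, a gene of thoracic and mammary development, had 12, 11 and 14 in KO, against 21, 14 and 24 in WT. Both Hoxb genes were lower in KO in Tfh21 and Tfh4. In Tfh214 both were higher in KO, with 18.8 CPM in KO and 10.2 in WT at Hoxb4, and 13.8 CPM in KO and 11.0 in WT at Hoxb9. Hoxa10, which patterns the uterus and lumbar spine, had 17, 11 and 20 reads in KO, against 15, 21 and 16 in WT. Hoxa11, of the uterus and forearm, had 11, 10 and 15 in KO, against 11, 14 and 16 in WT. These Hoxa genes overlapped between genotypes in CPM. Hoxd9 had 11, 8 and 14 reads in KO, against 17, 13 and 21 in WT, and Hoxd11, of the forearm and kidney, had 8, 10 and 7 in KO, against 9, 10 and 21 in WT. Of the Hoxd9 reads, 58 lay in 1 peak over the start at chr2:74535675-74536374, with 9, 6 and 11 in KO and 6, 8 and 18 in WT. In Hoxc the 2 genes with most reads were Hoxc5, with 9, 5 and 3 in KO, against 8, 7 and 10 in WT, and Hoxc13, a hair and nail gene, with 5, 1 and 8 in KO, against 3, 6 and 13 in WT. The 36 genes ranged from 11 to 139 reads with a median of 36, and 5 of them had no read in at least 1 library.

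No Hox gene separated the genotypes. None had its 3 KO libraries all below or all above its 3 WT libraries in CPM, where 5.05% of all genes were below and 6.43% above. Of the 36 pooled ratios, 23 lay below 1 and 13 above, where 46.2% of all genes lay below. The median ratio was 0.813, against 1.02 over all genes. No Hox interval left out 1, where 5.11% of genes had an interval below 1 and 5.46% above. The highest ratio was 1.64 (0.961 to 2.84) at Hoxb5. In single pairs of libraries, a gene was called at 1.5-fold where the higher library held 20 reads or more, with no test. In Tfh21, 2 of 3 Hox genes were past it (10.7% of all genes), with ratios of 0.493 at Hoxb4 and 0.610 at Hoxb9. In Tfh214, 0 of 2 were (12% of all genes). In Tfh4, 3 of 6 were (12.9% of all genes), with 0.655 at Hoxb4, 0.647 at Hoxb9 and 0.370 (0.133 to 0.902) at Hoxd11. All of these genes reached 20 reads in the WT library alone, so the minimum itself favours a lower value in KO, and nothing is read from their count or direction.

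Across all genes with a mean of at least 10 reads, limma called 6 of 13527 between genotypes (0.0444%) at an adjusted p under 0.05, and none of the 10 Hox genes tested. Without the minimum of reads it called 0 of the 36 Hox genes, against 0.0576% of all genes. The 10 tested with the minimum were Hoxa3, Hoxa4, Hoxa10, Hoxa11, Hoxb4, Hoxb5, Hoxb9, Hoxd3, Hoxd9 and Hoxd11, and the other 26 held too few reads for it. The values that follow are for these 10. The smallest adjusted p was 0.546 for Hoxb5, with a log2 change of 0.70 ± 0.39 (SE). No Hox gene had an unadjusted p under 0.05 by limma, where 1393 of the 13527 genes had such a p. The median log2 change was -0.13 over the 10 Hox genes and 0.05 over all genes tested. The median-of-ratios scaling moved the median of all genes to -0.13 and that of Hox to -0.30. With it limma called 227 genes in all, 1 higher and 226 lower in KO, and again 0 of the 10 Hox genes. On recovered reads edgeR called 4 and DESeq2 1 of the 13527 genes, and neither called a Hox gene. At an unadjusted p under 0.05, edgeR had 1186 genes and DESeq2 86, with 0 Hox genes by each. No single Hox peak reached the mean of 10 reads, where 0.284% of 14089 peaks tested were called. Without that minimum 0 of 94 were called, against 0.00601% of all peaks. At an unadjusted p under 0.05 limma had 1 of the 94, where 15292 of all 282898 peaks had such a p.

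Tfh4 over Tfh21 gave 0.991 (0.879 to 1.12) for all Hox peaks, where all peaks with under 30 reads gave 1.15. With median-of-ratios scaling the values were 1.21 (1.07 to 1.36) for Hox and 1.41 for those peaks, so the direction for Hox depended on the scaling and Hox lay below the weak peaks under both. Tfh214 over Tfh21 gave 1.01 (0.889 to 1.14), against 1.04 over those peaks. Hoxd had the highest value of Tfh4 over Tfh21, 1.17 (0.938 to 1.47), or 1.43 (1.14 to 1.79) with median-of-ratios scaling. limma called 0% of genes in each contrast of populations, Hox included, and 0 of the 10 Hox genes had an unadjusted p under 0.05. Of all 13527 genes, 1589 had such a p in Tfh4 minus Tfh21, 713 in Tfh214 minus Tfh21 and 1276 in Tfh4 minus Tfh214. With median-of-ratios scaling it called 564 genes in Tfh4 minus Tfh21, 138 in Tfh4 minus Tfh214 and 0 in Tfh214 minus Tfh21, with 0 Hox genes in each. The smallest adjusted p for a Hox gene was 0.449 for Hoxd3 in Tfh4 minus Tfh21, with a log2 change of 0.60 ± 0.31 (SE). It was 0.975 in Tfh214 minus Tfh21 and 0.617 in Tfh4 minus Tfh214. edgeR and DESeq2 called none of the 10, with 1 at an unadjusted p under 0.05 by edgeR in Tfh4 minus Tfh21, where 1439 of all 13527 genes had such a p.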

How the data were processed

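ATAC-seq of 6 libraries was used, 1 for each Stat6 genotype and population. The authors deposited CPM per peak for 1 common list of peaks, per the file headers with position, gene section and distance to the start site. Bowtie 1.3.0, MACS2 2.0 and HOMER, with build mm9, appear in the submitters' processing notes, with no role given. Duplicate handling, transposase shift and pooling for peak calling were not given in the sources used here. Genes were taken from the symbol in the column headed Gene IDs. Whole reads were recovered from the CPM step of each library, with at most 3 values per library over 0.02 reads from a whole number.

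Reads and CPM were summed per gene and cluster. Ratios carry exact binomial, levels Poisson and shares Wilson 95% intervals, all of counting error only. An additive model of genotype and population (2 residual degrees of freedom) was fitted to log2(CPM + 1), a scale that understates changes of low genes, with limma 3.58.1, a variance trend, a mean of at least 10 reads and Benjamini-Hochberg adjustment at 0.05, after a test on simulated data. Its p-values set effects against spread over populations, not animals. edgeR 4.0.16 and DESeq2 1.42.0 on recovered reads, other scalings, pseudocounts and minimums were alternatives. R 4.3.3 and Python 3.11.15 were used. Values in every library were given for Hox genes with at least 20 reads in a library and the 2 with most reads per cluster. One marker of the lists is not reported here. Members and lists were chosen with earlier results of these data known. Promoters are from RefSeq (GRCm38.p6), while peaks are in mm9, and coordinates were not converted. Of the 39 Hox genes, 22 had a promoter sequence.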

Additional observations from a re-analysis of the deposited data

Results flagged for a closer look

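An intergenic peak inside the Hoxa span, which carries no gene symbol and so enters no Hox sum, held 61 reads over the 6 libraries, more than any peak with a Hox symbol (58). It lies at chr6:52171492-52171885 (mm9) and held 12, 9 and 8 reads in KO Tfh21, KO Tfh214 and KO Tfh4, against 11, 11 and 10 in WT Tfh21, WT Tfh214 and WT Tfh4. In CPM these were 11.4, 11.3 and 6.46 in KO, against 9.80, 8.65 and 7.28 in WT, so the genotypes overlapped. It was looked at because it lies outside the peaks chosen by symbol.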

How the results depend on the processing

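Under alternative settings, 93 values kept their direction and call or moved by less than the spread, and 13 moved. No Hox gene was called under any alternative. For single peaks most fits tested no Hox peak, so the result of 0 calls was fixed in advance, and the 93 values include such fits. Of the alternatives for peaks, the fit with no minimum tested 94 Hox peaks, that without Tfh21 2 and that without Tfh214 1, and none was called. Over all peaks these fits called 17 of 282898, 2 of 14077 and 234 of 14612 in that order, so 0 calls among so few Hox peaks tell little. With median-of-ratios scaling the ratio over all Hox peaks was 0.789 for KO over WT and 1.21 for Tfh4 over Tfh21. With TSS peaks only, Hoxb gave 0.588 for Tfh214 over Tfh21. With a minimum of 10 reads in the higher library, 6 of 12 Hox genes were past 1.5-fold in Tfh21 (16.6% of all genes), all lower in KO, 4 of 13 in Tfh214 (18.8%), 3 of them higher in KO, and 8 of 16 in Tfh4 (18.6%), 1 of them higher in KO. Some of these genes reached the minimum in 1 library of the pair alone, as Hoxa9 in Tfh21 with 4 reads in KO and 12 in WT. The WT library was the deeper of each pair, so nothing is read from these counts or directions. With start-site peaks limited to 200 bases, the Hox share of start-site reads was 0.0212%, 0.0174% and 0.0245% in KO Tfh21, KO Tfh214 and KO Tfh4, against 0.0282%, 0.0233% and 0.0333% in WT Tfh21, WT Tfh214 and WT Tfh4. The genotypes thus overlapped across populations and the exact permutation p is no longer the smallest possible, while KO was lower within each population. Per peak in place of per kb, the Hox level relative to all start sites was 0.438. The cause of these shifts was not tested. All peaks in the 4 spans, an alternative chosen after seeing the data, gave 0.920 (0.851 to 0.994) for KO over WT. The labels give no replicate numbers. The population term was the block of the genotype model, and without that replicate block limma called 0 Hox genes, and 8 genes in all in place of 6. Without 1 population at a time it called 0 Hox genes, and 7 to 75 genes in all. The minimum mean of 20 reads left 1 Hox gene to test. Depth limited every Hox gene, at 34 reads or fewer per library.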
